A study of Mus musculus with 17 samples.

Results

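The comparison described here set the RNA pulled down with ribosomes of Pomc-expressing cells at weaning (postnatal day 21, P21) against the same RNA at birth (postnatal day 0, P0), in mice whose dams ate chow. Its members are 8 of the 17 libraries of the series, 3 at P21 and 5 at P0, chosen by their labels for diet and age. All 15355 genes of the deposited table were taken into account and 14549 passed a filter on low values. Each library came from mediobasal hypothalamus of Pomc-RiboTag offspring, so the tagged ribosome and its Pomc driver are shared by every group. The dams entered the diet at 6 weeks of age, were mated 4 weeks later and kept the same food until day 21 after birth. The other 9 libraries, used below as samples outside the chow comparison, came from offspring of dams on a 45% high-fat diet (HFD), with 4 at P21 and 5 at P0. The samples are labelled as biological replicates, with no word on the animals, litters or pools in each, their sex or a batch. The p-values therefore reflect how far these libraries spread, which may be technical in part.

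POMC (pro-opiomelanocortin) neurons of the arcuate nucleus suppress appetite through alpha-MSH, a peptide cut from the Pomc precursor, and oppose neighbouring neurons that make Agrp and Npy. In rodents the arcuate nucleus is populated before birth, while its axons reach their targets and its synapses form in the weeks after it. In a RiboTag mouse cells in which the driver is or was active carry ribosomes with an HA tag, and an antibody to the tag pulls these down with their mRNA. Pomc is also switched on for a time in embryonic precursors that later become other arcuate neurons, and a pulldown carries some RNA of untagged cells, so the RNA measured is enriched for POMC neurons and not pure. In such bulk samples fewer cells of a type and less RNA per cell cannot be told apart.

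The 8 libraries held 22.4 to 37.1 M reads counted to genes, with 31.3 ± 7.82 M at P21 (SD, n = 3) and 27.2 ± 3.20 M at P0 (n = 5). A value of 0 allows up to 0.083 to 0.138 units (3 reads), counting error only. Values are scaled CPM, reads per gene relative to library size, called units here. Changes are differences of log2(value + 1), P21 minus P0, which understate the change of genes near 0. The main axis of variation over the 8 libraries (59.5% of the variance) separated the ages. Correlations of log2 values across genes between libraries were 0.9559 to 0.9754 within P21, 0.9385 to 0.9807 within P0 and 0.8478 to 0.9048 between ages. The second axis (15% of the variance) spread the P0 libraries, with replicates 1 and 2 at 29.0 and 43.6, replicate 3 at -6.7 and replicates 4 and 5 at -36.1 and -38.2. Pomc was at 146 and 224 units in P0 replicates 1 and 2, against 891 and 1308 in replicates 4 and 5, and Tbx3, a transcription factor of Pomc neurons, at 15.6 and 27.0, against 131 and 161. The median deviation of ribosomal protein genes from their P0 mean (log2 scale) was 0.36 and 0.32 in replicates 1 and 2, and -0.07 and -0.32 in replicates 4 and 5. P21 replicate 3 had the highest Pomc and the lowest Cartpt, Agrp and Npy of its age, with the highest myelin, microglial and erythroid values. P0 replicate 3 had 0.110% of its signal in myelin genes, against 0.0324% to 0.0466% in the other P0 libraries. The results that these replicates numbered 3 move are given below with and without them.

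Between birth and weaning 5251 of the 14549 genes changed at an adjusted p under 0.05 in limma's test (36.1%), 2669 higher (18.3%) and 2582 lower (17.7%) at P21. The difference was at least 1 on the log2 scale in 1540 of the higher and 1465 of the lower genes, and above 4 in 27 and 14 genes. Groups did not overlap in 4698 of the changed genes (89.5%), against 5407 of all genes tested (37.2%). Up to 4 members of each gene list are named below for the smallest p in this same comparison. Their separation between ages follows largely from that choice and is no separate result. Counts of list members stand against the shares of all genes, 18.3% higher and 17.7% lower. The median of all genes was -0.01, and -0.08 with each library rescaled to an equal sum. With that rescaling 2402 genes were higher and 2873 lower, so which direction held more genes depended on the scaling. In 3311 of the changed genes (63.1%) the call held in each of the 8 fits that left out 1 library.

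**Figure D1:**
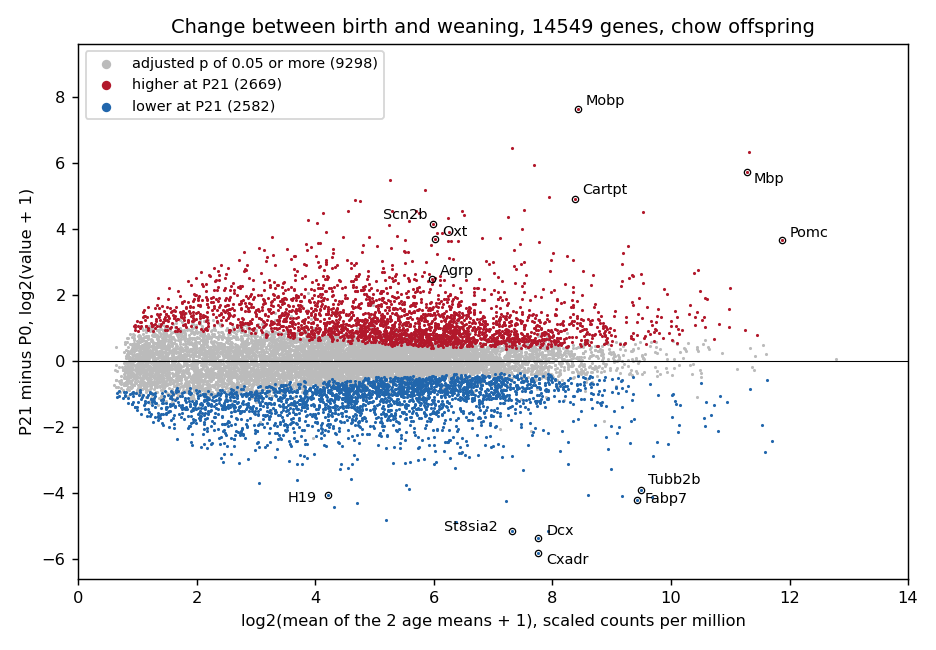
Each point is 1 of the 14549 genes tested. The x axis gives the log2 of the mean of both age means plus 1, in scaled CPM, and the y axis the P21 minus P0 difference in log2(value + 1). Red points (2669 genes) were higher and blue points (2582) lower at P21, and circled genes are named in the text. Mobp and Mbp stand at the top, Cxadr, Dcx and St8sia2 at the bottom.

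Of the 15 largest rises, 13 were genes of oligodendrocytes, the cells that wrap axons in myelin. Among them, with the log2 difference in brackets, were Mobp (7.64), Mog (6.45), Mal (5.95), Mbp (5.71), Opalin (5.49), Fa2h (5.19), Mag (4.95), Cldn11 (4.55), Ermn (4.54), Enpp6 (4.53) and Ugt8a (4.53). The other two were Cartpt (4.90), the precursor of the CART peptides, and Ntsr2 (4.59), a neurotensin receptor found on astrocytes. Of the 15 largest falls, 5 (Dcx, Sox11, Fabp7, Dpysl3 and Tubb2b) were on the list of immature neuron and growth cone genes. The largest falls began with Cxadr, a cell adhesion protein and virus receptor (-5.81), Dcx, the microtubule protein of migrating neurons (-5.37), and St8sia2, which puts polysialic acid on NCAM (-5.14). Fat4, a giant cadherin (-5.14), Trim67, a ubiquitin ligase of developing neurons (-4.87), and Gpc2, a heparan sulphate proteoglycan of growing axons (-4.81), fell as well. B3gnt5 (-4.41), which starts the lacto-series glycolipids, the RNA-binding Mex3a (-4.29), the transcription factor Sox11 (-4.24) and the fatty acid carrier Fabp7 (-4.20) followed. Nrep (-4.13), Dpysl3 (-4.09), H19 (-4.07), the kinase gene Sbk1 (-4.05) and Tubb2b (-3.90) closed the list. Cxadr had 2.72, 14.1 and 6.30 units in the P21 libraries, against 343, 436, 379, 451 and 493 units in the P0 libraries. Fat4 had 12.8, 8.07 and 13.3 units in the P21 libraries, against 412, 953, 368, 304 and 324 units in the P0 libraries. The named falls were taken only from genes whose ages do not overlap, so the lack of overlap in both genes follows from that rule. P0 replicate 2 was the highest for Fat4. Gpc2 shares 55.6% of its exonic bases with another gene model, so its reads may not all be its own.

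Pomc, Cartpt and Agrp were higher at weaning, while Npy and Lepr did not pass the test. Pomc, on chromosome 12 from 3954951 to 3960642 (mm10), had 4679, 3878 and 12069.6 units in the P21 libraries, against 146, 224, 657, 891 and 1308 units in the P0 libraries. Every P21 library lay above every P0 library, with a wide spread inside each age. The difference was 3.65 (SE 0.62, adjusted p = 0.000613) and ran from 3.15 to 4.01 with 1 library left out. Cartpt had 834, 663 and 391 units in the P21 libraries, against 22.1, 15.9, 106, 7.21 and 8.89 units in the P0 libraries. P0 replicate 3 was the highest of its age, and the groups did not overlap. The difference was 4.90 (SE 0.63, adjusted p = 8.23e-05), and 5.50 without that library. Agrp, the peptide that blocks alpha-MSH at its receptors, had 184, 132 and 13.97 units in the P21 libraries, against 5.25, 5.25, 18.8, 17.8 and 21.9 units in the P0 libraries. P21 replicate 3 lay below 3 of the P0 libraries, so the ages overlapped. The difference of 2.5 (SE 0.71, adjusted p = 0.0149) was lost without P21 replicate 1 (1.81, adjusted p = 0.0897) or P21 replicate 2 (2.05, adjusted p = 0.0817), and was 3.63 without P21 replicate 3. Over all alternatives its adjusted p ran from 0.000321 to 0.972. Agrp shares 11.3% of its exonic bases with another gene model. Npy, the partner peptide of Agrp neurons, had 506, 437 and 51.9 units in the P21 libraries, against 68.1, 83.7, 89.6, 111 and 136 units in the P0 libraries. The same P21 library lay below every P0 library, and the difference of 1.24 (SE 0.56, adjusted p = 0.103) did not pass. Without that library it was 2.29 (adjusted p = 5.03e-05), the lowest of a range up to 0.42 over all alternatives. Lepr, the leptin receptor, was low at both ages, at 5.10 ± 2.06 units at P21 and 3.63 ± 1.91 at P0 (SD, n = 3 and 5), and its difference of 0.46 (SE 0.39, adjusted p = 0.395) did not pass.

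**Figure D2:**
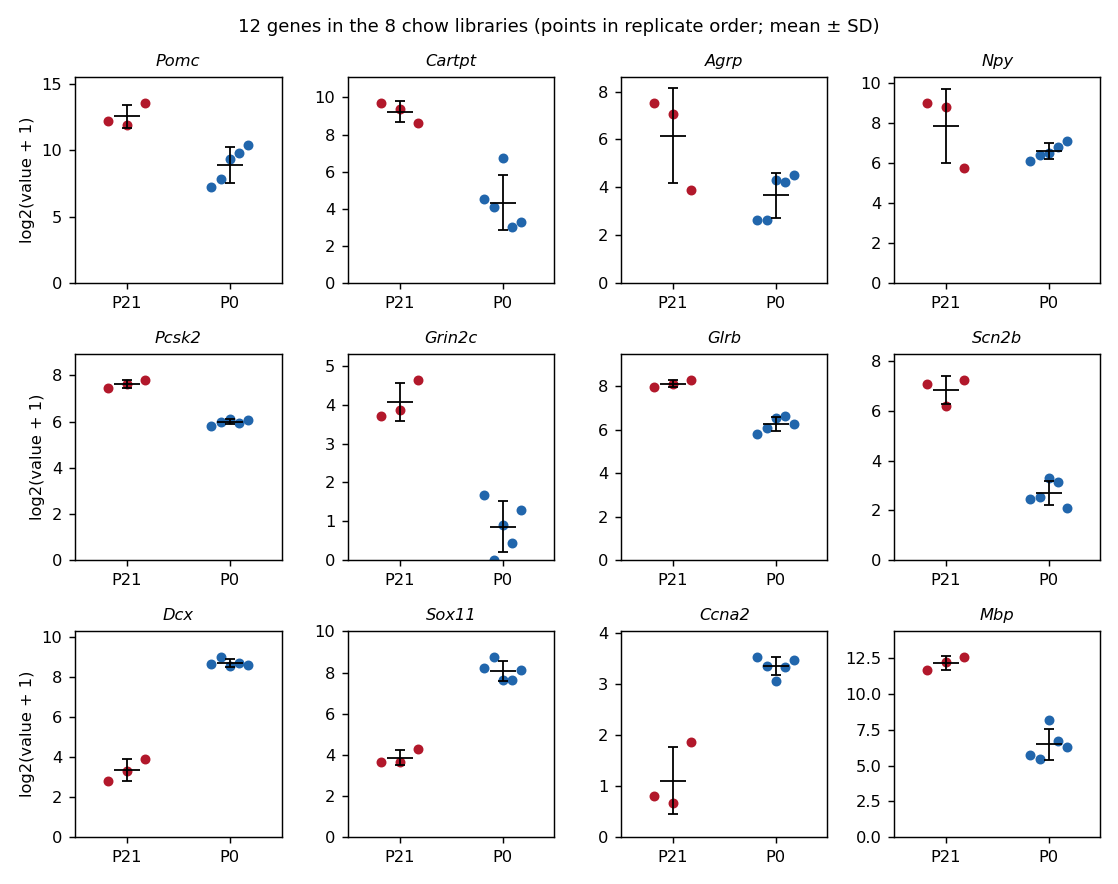
Values of 12 genes in the 8 chow libraries as log2(value + 1) of scaled CPM, P21 libraries in red at the left of each panel and P0 libraries in blue, in replicate order, with mean ± SD. The third P21 point lies among the P0 points in Agrp and below them in Npy. Pcsk2, Glrb and Scn2b sit higher, and Dcx, Sox11 and Ccna2 lower, in every P21 library.

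Among 29 hypothalamic peptide genes tested, Th included, 17 rose and 0 fell at P21 (58.6%, median 1.24, against a median of -0.01 for all genes). Oxt, which encodes oxytocin, had 146, 117 and 94.5 units in the P21 libraries, against 11.3, 10.1, 9.77, 6.33 and 5.17 units in the P0 libraries, a difference of 3.68 (SE 0.26, adjusted p = 1.15e-06). Tac2, the precursor of neurokinin B, had 79.5, 59.6 and 90.99 units in the P21 libraries, against 4.00, 5.09, 9.10, 3.19 and 3.08 units in the P0 libraries, a difference of 3.79 (SE 0.31, adjusted p = 3.03e-06). Both genes were higher in every P21 library, by more than the spread within either age. They were named for their small p, which favours such separation. Vip rose by 2.83 and Penk, the enkephalin precursor, by 1.64. Oxytocin is made mainly in hypothalamic nuclei outside the arcuate. The count of risers ran from 13 to 18 with 1 library left out.

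Genes that cut, sort and store peptide precursors rose with them. Of 19 tested, 14 rose and 0 fell (73.7%, median 0.95). The same number rose without P0 replicate 3, where 1 fell, and without P21 replicate 3. Pcsk2, the convertase that trims ACTH towards alpha-MSH, had 175, 199.8 and 224 units in the P21 libraries, against 55.9, 62.98, 67.7, 60.5 and 65.5 units in the P0 libraries. The P21 values were tightly grouped and far above the P0 values, a difference of 1.65 (SE 0.14, adjusted p = 4.29e-06). Pcsk1, the convertase of the earlier cut, had 71.6, 64.2 and 36.3 units at P21, against 7.25, 5.21, 15.6, 17.7 and 26.8 units at P0, a difference of 2.06 (SE 0.43, adjusted p = 0.00246). Pam, which amidates peptide ends, rose by 2.16, the granule protein gene Vgf by 2.19 and Ptprn, a membrane protein of dense-core vesicles, by 2.72. The list took 0.985% to 1.05% of the signal in the P21 libraries and 0.395% to 0.590% in the P0 libraries.

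Of 27 receptors for hormones and energy signals, 14 rose and 2 fell (median 0.95), 51.9% and 7.41% against 18.3% and 17.7% of all genes. Nr3c1, the glucocorticoid receptor, had 91.6, 103 and 84.1 units in the P21 libraries, against 27.6, 36.3, 24.9, 25.7 and 22.02 units in the P0 libraries, with no overlap, and rose by 1.75 (SE 0.19). Prlr, the prolactin receptor, rose by 1.91. Mc3r, a melanocortin receptor that binds Pomc products, had 37.1, 33.5 and 14.2 units in the P21 libraries, against 3.25, 5.45, 6.23, 3.90 and 9.17 units in the P0 libraries. Its 3 P21 values lay above the P0 values, and the difference was 2.11 (SE 0.37, adjusted p = 0.000698). The fallers, named after their values were seen, were Cnr1, the cannabinoid receptor (-0.79), and Insr, the insulin receptor (-0.75). Both calls were lost without P21 replicate 2 (-0.66 for Cnr1 and -0.61 for Insr).

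Transcription factors that lay out the hypothalamus went the other way. Of 30 tested, 0 rose and 12 fell (median -0.76). Among them were Dlx2 (-2.57), Dlx1 (-2.09) and Dlx5 (-1.94), which direct the making of GABA neurons. Dlx2 had 5.23, 4.63 and 2.67 units in the P21 libraries, against 27.5, 28.5, 24.03, 47.8 and 22.3 units in the P0 libraries. P0 replicate 4 was the highest, and no P21 value reached the P0 values. Markers of the arcuate lineage itself did not pass: Tbx3 was at 0.55 (adjusted p = 0.533), Isl1 at -0.41 (adjusted p = 0.446) and Nkx2-1 at 0.05 (adjusted p = 0.921). All 3 genes were lowest, among the P21 libraries, in replicate 3, with Tbx3 at 42.7 against 118 and 121 units in P21 replicates 1 and 2.

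Of 8 genes for making and moving GABA and glutamate, 3 rose and 0 fell (median 0.36), 37.5% higher against 18.3% of all genes. Gad2, an enzyme that makes GABA, had 204, 215 and 201 units in the P21 libraries, against 87.8, 97.02, 91.2, 92.9 and 56.2 units in the P0 libraries, a difference of 1.30 (SE 0.18, adjusted p = 0.000145) with no overlap. Slc6a11, a GABA transporter of astrocytes, rose by 1.09. Slc17a7, the vesicular glutamate transporter VGLUT1, had 7.14, 30.2 and 71.6 units in the P21 libraries, against 5.80, 2.24, 4.45, 1.47 and 0.80 units in the P0 libraries. P21 replicate 3 was far above the other P21 libraries. Its difference of 2.91 (SE 0.61, adjusted p = 0.00254) was 2.18 without that library, and in HFD offspring it was -0.23 and did not pass. Slc32a1, the vesicular GABA transporter, was at 0.49 and did not pass.

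Of 6 NMDA receptor genes tested, 2 rose and 3 fell. Grin1, the obligatory subunit, had 129, 172 and 148 units in the P21 libraries, against 35.5, 46.5, 58.6, 61.7 and 65.1 units in the P0 libraries, a difference of 1.49 (SE 0.20, adjusted p = 0.000124). Grin2c rose by 3.21, while Grin3a fell by 1.59, Grin2d by 2.16 and Grin2b by 1.03 on the log2 scale. Grin3a had 51.8, 51.2 and 65.4 units in the P21 libraries, against 190.1, 170.3, 179.9, 167 and 145 units in the P0 libraries. Its lowest P0 value was above its highest P21 value. In HFD offspring Grin2d was at 0.33 and did not pass. Of 11 AMPA and kainate receptor genes, 2 rose, Gria1 (0.80) and Gria3 (0.94), and 2 fell, Grik1 (-1.47) and Grik3 (-0.74), near the shares of all genes (18.2% higher and 18.2% lower, against 18.3% and 17.7%). Grik3 lost its call without P0 replicate 3 (-0.72), P21 replicate 1 (-0.56) or P21 replicate 2 (-0.65).

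Among 19 GABA-A and glycine receptor genes, 8 rose and 2 fell (median 0.55), 42.1% and 10.5% against 18.3% and 17.7% of all genes. Glrb, the anchoring beta subunit of glycine receptors, had 246, 278 and 314 units in the P21 libraries, against 54.5, 66.8, 91.3, 96.9 and 76.8 units in the P0 libraries, a difference of 1.86 (SE 0.19, adjusted p = 1.47e-05) with no overlap between ages. Gabrd, a subunit of receptors outside synapses, rose by 3.43 and was near 0 at birth (0 to 1.28 units), where 2 libraries were at 0. Glra2, the fetal glycine receptor subunit, had 24.2, 31.3 and 24.4 units in the P21 libraries, against 82.03, 84.5, 91.8, 91.8 and 84.8 units in the P0 libraries and fell by 1.68. Among 10 genes that set neuronal chloride, 3 rose and 1 fell. Slc12a5, which pumps chloride out (KCC2), rose by 0.78, and Slc12a2, which loads chloride (NKCC1), rose as well, by 0.98. Stk39, a kinase that acts on both, rose by 0.58 (0.50 and no longer past the threshold without P21 replicate 1), and Wnk2, a kinase above it, fell by 1.27.

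Of 12 sodium channel genes, 7 rose and 2 fell (median 0.90). Scn2b, a beta subunit of adult channels, had 133, 72.9 and 151 units in the P21 libraries, against 4.47, 4.80, 8.71, 7.81 and 3.28 units in the P0 libraries. The lowest P21 value was several times the highest P0 value, a difference of 4.14 (SE 0.32, adjusted p = 1.97e-06). Scn4b, another beta subunit, rose by 3.91 with 9.86 to 66.7 units at P21 against 0.08 to 2.06 at P0. The fetal forms fell, Scn3a by 1.51 and Scn3b by 1.87. Scn8a, the channel of mature axon initial segments, had overlapping ages. Its difference of 0.83 (SE 0.30, adjusted p = 0.0465) was lost without P0 replicate 3, 4 or 5 (0.64 to 0.85) or P21 replicate 1 (0.92) or 3 (0.52), and was 0.14 in HFD offspring.

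Of 15 calcium channel genes, 3 rose and 2 fell (median -0.19), close to the shares of all genes. Cacnb4 rose by 1.79 and Cacnb3, another beta subunit, fell by 0.99. Cacna1a, the P/Q-type pore, was at -1.57, lost without P21 replicate 2 (-1.52) or 3 (-1.42), and Cacna2d1 at 0.46, lost without P0 replicate 1, 3 or 4 or P21 replicate 1 or 2 (0.38 to 0.46). Without P0 replicate 3 the risers were 1. Of 47 potassium and HCN channel genes, 17 rose and 6 fell (median 0.43), 36.2% and 12.8% against 18.3% and 17.7% of all genes. Kcna1, an axonal delayed-rectifier channel, had 51.3, 79.5 and 139 units in the P21 libraries, against 3.57, 3.48, 6.74, 2.03 and 2.56 units in the P0 libraries, a difference of 4.24 (SE 0.36, adjusted p = 3.82e-06). Kcnj9, a subunit of channels opened by G proteins, rose by 2.58, the leak channel Kcnk1 by 1.59 and Kcnip4, a partner of Kv4 channels, by 1.40.

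Of 39 presynaptic genes, 20 rose and 5 fell (median 0.59), 51.3% and 12.8% against 18.3% and 17.7% of all genes. Without P21 replicate 3 the counts were 15 and 6. Vamp1, a vesicle SNARE, had 209.6, 254 and 422 units in the P21 libraries, against 25.2, 25.6, 44.8, 19.9 and 21.8 units in the P0 libraries, a difference of 3.37 (SE 0.27, adjusted p = 2.27e-06). Snap25, its partner on the plasma membrane, had 1915, 2100.3 and 3003 units in the P21 libraries, against 441, 389.9, 556, 589 and 713 units in the P0 libraries, a difference of 2.12 (SE 0.23, adjusted p = 1.99e-05). Syngr1, a vesicle membrane protein, rose by 1.37, while Syn3, the synapsin of developing neurons, fell by 2.10. Of 34 genes of the postsynaptic side, 12 rose and 3 fell (median 0.38), 35.3% and 8.82% against 18.3% and 17.7% of all genes. Nrgn, which holds calmodulin, had 124, 119 and 124 units in the P21 libraries, against 34.4, 40.6, 29.3, 27.6 and 21.1 units in the P0 libraries and rose by 2.00, Camk2a by 1.85 and Baiap2, a scaffold of dendritic spines, by 1.74. These 3 postsynaptic genes, named for their small p, did not overlap between ages. Over the whole list 14 of 34 genes did not overlap, against 37.2% of all genes tested.

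For 22 pairs of genes in which an early form is known to give way to a late one in brain, the late form's share of the pair was computed from values per kilobase of exon. The share was higher in every P21 library than in any P0 library in 15 pairs, lower in 2 and overlapping in 5, with no test on the shares. In 7 pairs the late gene rose and the early gene fell, both past the gene test. Tubb4a, the beta tubulin of mature brain, made up 93.9 ± 1.09% of its pair with Tubb2b at P21 and 33.3 ± 5.54% at P0 (SD, n = 3 and 5). Tubb2b itself had 82.6, 88.2 and 93.5 units in the P21 libraries, against 1248, 1162, 1139, 1397 and 1793 units in the P0 libraries. Tubb2b fell by 3.90, while Tubb4a was at 1.07 (0.86 and no longer past the threshold without P21 replicate 3). Tuba4a reached 20.7 ± 1.68% of its pair with Tuba1a at P21, against 0.535 ± 0.110% at P0. Tuba4a shares 37.3% of its exonic bases with Stk16 and Tuba1a 26.2% with another gene model, so their reads may not all be their own. Grin2c took 40.9 ± 5.69% at P21 and 1.35 ± 1.17% at P0 of its pair with Grin3a. Glra1 took 23 ± 2.14% at P21 and 1.88 ± 2.01% at P0 of its pair with Glra2. Nefh, the heavy neurofilament, took 25.2 ± 2.87% at P21 and 2.56 ± 0.441% at P0 of its pair with Ina, an early intermediate filament. Ina shares 14.1% of its exonic bases with Nt5c2.

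The KCC2 gene Slc12a5 made up 88.9 ± 1.90% of its pair with Slc12a2 at P21 and 90.0 ± 3.37% at P0, so the share was already that high at birth and the ages overlapped. Grin2a stayed at 3.61 ± 4.16% at P21 and 2.18 ± 1.18% at P0 of its pair with Grin2b, and its difference of -0.27 did not pass. Actl6b, the neuronal BAF53 subunit, made up 73.3 ± 4.27% of its pair with Actl6a at P21 and 84.7 ± 4.62% at P0, having fallen by 1.11. Slc16a7, a neuronal monocarboxylate transporter, made up 0.958 ± 0.691% at P21 and 3.71 ± 1.33% at P0 of its pair with Slc16a1. Slc16a7 was at -1.08 and did not pass. Slc16a1 was at 0.58, a call lost without P0 replicate 1, 3, 4 or 5 (0.50 to 0.59) or P21 replicate 2 or 3 (0.49 each). In 2 further pairs the late form's share was higher at P21 in every library. Camk2a, the late CaM kinase subunit, took 31.0 ± 6.04% at P21 and 14.3 ± 2.93% at P0 of its pair with Camk2b. The thyroid receptor Thrb took 7.29 ± 0.756% at P21 and 1.36 ± 0.476% at P0 of its pair with Thra. Thrb rose by 2.14, and Thra was at -0.16 and did not pass.

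**Figure D3:**
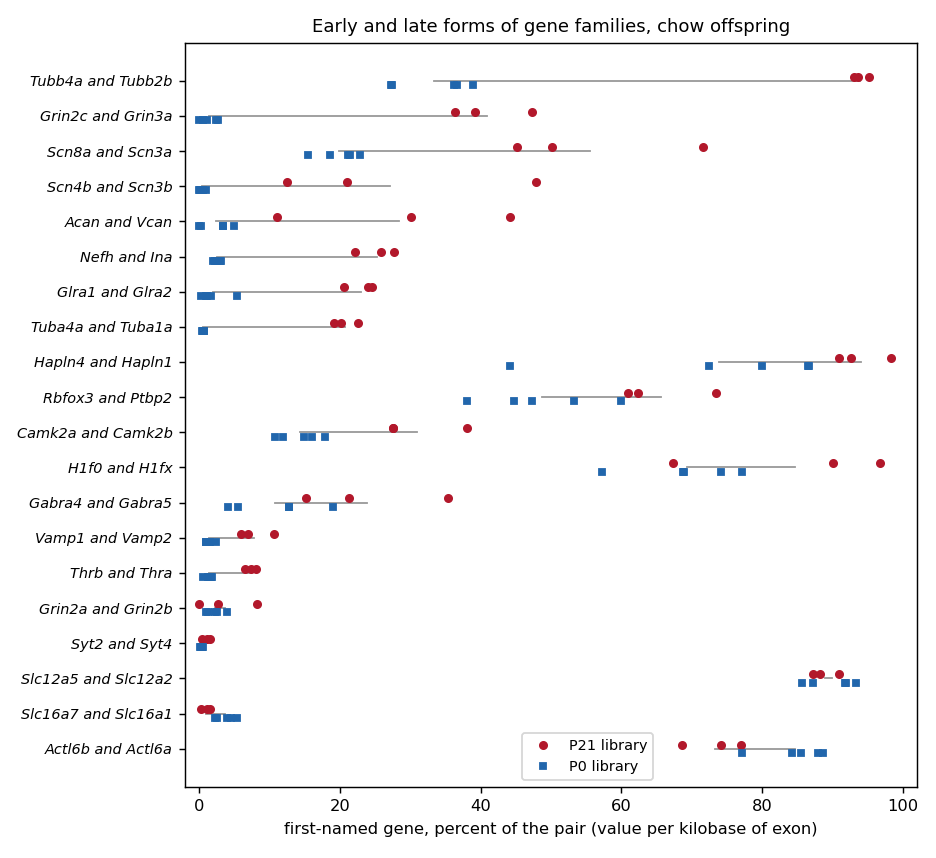
For each gene pair shown, the x axis gives the late form (named first) as percent of the pair, from values per kilobase of exon. Red circles are P21 libraries and blue squares P0 libraries, and the grey line joins the age means. The Tubb4a and Grin2c shares are higher in every P21 library, the ages overlap for Slc12a5, and Slc16a7 and Actl6b lie lower at P21.

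In the other pairs, Hapln4, a link protein of adult matrix, rose by 4.12 and took 94.0 ± 3.83% at P21 and 73.9 ± 17.7% at P0 of its pair with Hapln1. Hapln1 was at 1.53 with overlapping ages, and its call was lost without P0 replicate 2, 3, 4 or 5 (1.33 to 1.60) or P21 replicate 2 (1.24) or 3 (0.99). Acan was at 1.05 and did not pass, while Vcan, the embryonic lectican, fell by 1.51. Dnmt3a, the de novo methyltransferase, fell by 1.62. Ptbp2, the splicing factor of young neurons, was at -0.67 (-0.53 and lost without P21 replicate 3), and Rbfox3 (NeuN) at 0.35 did not pass. The linker histone gene H1fx was at -1.58, lost without P21 replicate 2 (-1.48) or 3 (-0.94), and H1f0 at 0.13 did not pass. Syt2 was at 1.36, lost without P0 replicate 1 (1.25) or 4 (1.14) or P21 replicate 2 (1.20) or 3 (0.99), and Syt4 at 0.23 did not pass. Gabra4 was at 0.92, lost without P21 replicate 3 (0.70), and Gabra5 at -0.56 did not pass.

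Genes of immature neurons and growth cones fell almost as a block. Of 35 tested, 31 fell and 1 rose (88.6% lower, median -2.30), with 31 or 32 lower in every fit that left out 1 library. The exception, named after its value was seen, was Rnd2, a small GTPase (1.29). Together these genes took 1.1% to 1.15% of the signal at P21 and 4.03% to 5.09% at P0. Dcx had 5.96, 8.87 and 13.8 units in the P21 libraries, against 401, 517, 379.8, 413 and 383 units in the P0 libraries. The P0 values were more than an order of magnitude above the P21 values, a difference of -5.37 (SE 0.22, adjusted p = 1.36e-08). Dpysl3, which steers growth cones, had 53.3, 61.1 and 75.96 units in the P21 libraries, against 1009.7, 977, 1067, 1126 and 1279 units in the P0 libraries, a difference of -4.09 (SE 0.16, adjusted p = 1.36e-08). Sox11, a transcription factor of newborn neurons, had 11.5, 11.4 and 18.3 units in the P21 libraries, against 301, 436, 199, 198 and 281 units in the P0 libraries, and its relative Sox4 fell by 3.32. Neither of these overlapped, which for Sox11 follows from the rule that named it. Sox4 was named for its small p in the list, which favours such separation. Sox4 shares 54.6% of its exonic bases with another gene model. Among 23 genes of the mature neuronal skeleton and membrane, 10 rose and 5 fell (median 0.62). The shares were 43.5% and 21.7%, against 18.3% and 17.7% of all genes. Eno2, the neuronal enolase, had 975, 1065 and 1143 units in the P21 libraries, against 175, 138, 214, 184 and 216 units in the P0 libraries and rose by 2.52, and Atp1b1, a sodium pump subunit, rose by 1.69. Mapt, which encodes tau, is on the same list and fell, with 364, 410.5 and 464 units in the P21 libraries, against 1857, 1939, 1745, 1659 and 1891 units in the P0 libraries, a difference of -2.14 (SE 0.16, adjusted p = 1.87e-06).

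Of 65 semaphorin, ephrin, slit and netrin ligands and receptors, 32 fell and 6 rose (49.2% lower, against 17.7% of all genes; median -0.75), and 26 to 30 fell with 1 library left out. The receptors Ephb2 (-2.27), Plxna1 (-1.64) and Robo2 (-1.77) were among the fallers. Ephb2 had 14.3, 10.99 and 9.51 units in the P21 libraries, against 48.8, 67.1, 48.7, 61.4 and 74.5 units in the P0 libraries, without overlap. Plxnb3, a plexin, rose by 3.74 with 14.8 to 19.8 units at P21 against 0 to 1.00 at P0. Of 18 NCAM and L1 family genes and sialyltransferases, 3 rose (16.7%) and 6 fell (33.3%), against 18.3% and 17.7% of all genes. St8sia2, on chromosome 7 from 73939119 to 74013690 (mm10), had 9.86, 7.71 and 6.07 units in the P21 libraries, against 324, 244, 307, 331 and 348 units in the P0 libraries. The difference was -5.14 (SE 0.18, adjusted p = 6.77e-09). The second enzyme that makes polysialic acid, St8sia4, fell by 1.56 and their substrate Ncam1 by 1.04. Nfasc, which anchors nodes of Ranvier and initial segments, rose by 1.15. Of 20 growth factor and neurotrophin genes, 3 rose and 4 fell, near the shares of all genes (15% higher and 20% lower, against 18.3% and 17.7%). Ntrk2, the BDNF receptor TrkB, rose by 1.14, Fgfr1 by 1.20 and Fgfr3 by 1.05, and Ptn, a growth factor of fetal brain, fell by 1.23.

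Cell cycle genes were low at both ages and lower at weaning. Of 55 tested, 35 fell and 1 rose (63.6% lower, median -1.14), with 22 to 37 lower when 1 library was left out. Together they took 0.0391% to 0.0512% of the signal at P21 and 0.0819% to 0.0981% at P0. Rrm2, a subunit of the enzyme that makes deoxynucleotides, had 1.62, 1.52 and 4.41 units in the P21 libraries, against 21.3, 21.5, 23.97, 21.9 and 28.5 units in the P0 libraries, a difference of -2.88 (SE 0.29, adjusted p = 1.32e-05). Hmgb2, a chromatin protein of dividing cells, had 15.5, 18.02 and 23.9 units in the P21 libraries, against 60.01, 44.3, 46.6, 83.8 and 88.8 units in the P0 libraries, a difference of -1.67 (SE 0.25, adjusted p = 0.000264). Ccna2 (cyclin A2) fell by 2.24 and Uhrf1, which carries DNA methylation through replication, by 2.51. In these 4 genes, named for their small p, no P21 library reached the lowest P0 value. The gene that rose, named after its value was seen, was Anln, an actin-binding protein of dividing cells that oligodendrocytes also make (1.41), a call lost without P21 replicate 2 (1.17) or 3 (1.31).

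Promoters of such genes are known for a short element, TTTGAA, through which they are held silent in resting cells, often beside CCAAT boxes. In RefSeq promoter windows of GRCm38.p6 (250 bases before to 50 after the start, 1 window a gene), 31 of the 35 fallers had a window. TTTGAA or its reverse complement TTCAAA was found in 17 of them (54.8%), against 1194 of 10739 tested genes with a window (11.1%). CCAAT or ATTGG was found in 26 of the 31 (83.9%), against 4138 of the 10739 (38.5%). The motifs can share at most 1 base, and a match is a description and no evidence of binding. The 3 fallers of smallest p that hold the element in the 120 bases before their start are shown because they carry it, 5′ to 3′ on the gene's strand, with the element in capitals. They are Hmgb2 (chr8:57511723-57511842, plus strand), Top2a (chr11:99024190-99024309, minus strand) and Cdk1 (chr10:69352913-69353032, minus strand).
Hmgb2: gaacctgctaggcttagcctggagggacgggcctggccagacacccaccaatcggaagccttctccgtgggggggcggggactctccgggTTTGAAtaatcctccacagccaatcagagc
Top2a: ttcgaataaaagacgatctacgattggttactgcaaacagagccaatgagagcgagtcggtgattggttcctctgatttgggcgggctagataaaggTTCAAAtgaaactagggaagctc
Cdk1: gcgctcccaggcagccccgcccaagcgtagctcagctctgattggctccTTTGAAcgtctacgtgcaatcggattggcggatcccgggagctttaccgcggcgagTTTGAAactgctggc
The element closest to the start begins 30 bases before it in Hmgb2, 23 in Top2a and 15 in Cdk1, which carries 2 copies. Top2a, the topoisomerase of dividing cells, was at -2.12 and Cdk1, the mitotic kinase, at -1.74, and both fell.

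Of 13 genes of the Lin28 axis and fetal RNA-binding proteins, 0 rose and 5 fell (median -0.65). Mycn had 7.85, 7.47 and 10.5 units in the P21 libraries, against 41.9, 57.2, 59.5, 51.4 and 68.9 units in the P0 libraries, with no overlap, and fell by 2.56. Igf2bp3 fell by 2.23, Igf2bp2 by 2.36 and Lin28b, which blocks let-7 miRNAs, by 2.05, and Lin28b was at -1.59 without P21 replicate 2. Imprinted genes, which are read from 1 parental copy, divided into 10 higher and 11 lower of 40 (median -0.23). The shares were 25.0% higher and 27.5% lower, against 18.3% and 17.7% of all genes. Impact, a regulator of translation, had 1218, 1257 and 926 units in the P21 libraries, against 91.96, 91.1, 138, 88.8 and 93.97 units in the P0 libraries, a difference of 3.49 (SE 0.18, adjusted p = 1.24e-07). Rasgrf1, an activator of Ras, had 347, 404 and 258 units in the P21 libraries, against 16.1, 11.4, 41.6, 17.5 and 22.3 units in the P0 libraries, a difference of 4.00 (SE 0.32, adjusted p = 2.24e-06). Nnat had 799.5, 759 and 756 units in the P21 libraries, against 5318, 4516, 4176, 6607 and 6139.9 units in the P0 libraries and fell by 2.77, Cdkn1c, a brake on the cell cycle, fell by 2.62, and H19 by 4.07. Each of these 5 imprinted genes was separated between ages in every library. For H19 this follows from the rule that named it. The other 4 were named for the smallest p of the list, which favours such separation.

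Of 37 chromatin and DNA methylation genes, 3 rose and 20 fell (median -0.67). Hmgb3 had 118, 119.9 and 81.2 units in the P21 libraries, against 407, 370.2, 435, 536 and 557 units in the P0 libraries and fell by 2.11. The histone gene H3f3a fell by 1.77 and Dnmt1, the maintenance methyltransferase, by 1.51, while Hdac11, a histone deacetylase of mature brain, rose by 2.35. Of 27 neuronal splicing regulators, 2 rose and 14 fell (median -0.62). Mbnl2, which drives adult splice patterns, had 298, 312 and 247 units in the P21 libraries, against 37.1, 51.6, 51.5, 27.1 and 27.7 units in the P0 libraries, a difference of 2.89 (SE 0.23, adjusted p = 2.18e-06). Rbfox2 fell by 1.26, Hnrnpab by 1.14 and Nova1 by 0.97.

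Genes of other cells of the tissue were measured in the pulled-down RNA at both ages, and many of them rose. All 21 myelin genes rose (median 4.54), and their summed level ran from 8944 to 20400 units (0.882% to 1.98% of the signal) at P21 and from 310 to 1007 units (0.0324% to 0.110%) at P0. Mobp, on chromosome 9 from 120149707 to 120181484 (mm10), had 405, 669 and 971 units in the P21 libraries, against 0.20, 0.28, 35.2, 3.11 and 0.52 units in the P0 libraries. Mbp had 3257, 4968 and 6296 units in the P21 libraries, against 52.6, 42.2, 292, 105 and 76.9 units in the P0 libraries. P21 replicate 3 was the highest P21 library and P0 replicate 3 the highest P0 library for both. P0 replicate 3 was also the highest of its age in 24 of the 27 genes with a difference above 4, against 612 of the 2669 higher genes (22.9%). Mag (4.95) and Cnp (3.28) had the smallest p values of the list. Without P0 replicate 3 or without P21 replicate 3 the count was again 21. The motif ACAAAG or its reverse complement CTTTGT, known from SOX factors that act in these cells, was in 4 of the 14 windows of myelin genes (28.6%) and in 1449 of all 10739 (13.5%). Of 12 genes of oligodendrocyte precursors 6 rose and 0 fell (median 0.50), with 4 without P21 replicate 3, and their summed level was 628 to 1130 units at P21 and 285 to 518 at P0. Bcas1 (3.91), Gpr17 (2.58) and Sox10 (2.02) rose, while Pdgfra, the defining receptor of precursors, was at -0.08 and did not pass.

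Astrocyte genes rose in 19 of 22 cases and fell in 1 (median 1.79). Their summed level was 10840 to 15630 units at P21 and 2842 to 4299 at P0, and both defining markers, Aqp4 and Gja1, were above 0 in every library. Ntsr2 had 284, 296 and 463 units in the P21 libraries, against 15.9, 8.29, 33.1, 9.84 and 8.89 units in the P0 libraries, a difference of 4.59 (SE 0.37, adjusted p = 2.35e-06). Clu rose by 2.58, Agt (angiotensinogen) by 3.06 and Aldoc by 2.64, and Aqp4, the water channel of astrocyte endfeet, by 1.27. The faller, named after its value was seen, was Mfge8 (-1.46). Radial glia and tanycyte genes fell in 12 of 21 cases and rose in 1 (median -0.99), with a summed level of 481 to 608 units at P21 and 1767 to 2884 at P0. Fabp7 had 46.6, 62.97 and 106 units in the P21 libraries, against 1707, 1619, 1232, 1051 and 907 units in the P0 libraries, a difference of -4.20 (SE 0.27, adjusted p = 4.86e-07). Vim fell by 2.09 and the stem cell factor Sox2 by 1.56, while Dio2, the enzyme of tanycytes and astrocytes that activates thyroid hormone, rose by 2.15. Dio2 was named after its value was seen.

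Microglial genes rose in 12 of 19 cases and none fell (median 0.97), with 9 without P21 replicate 3, and their summed level was 483 to 864 units at P21 and 206 to 306 at P0. P2ry12, a purine receptor of resting microglia, had 21.4, 31.8 and 38.1 units in the P21 libraries, against 7.75, 8.73, 5.90, 3.55 and 3.96 units in the P0 libraries. The P21 values lay above all P0 values, and the difference was 2.20 (SE 0.32, adjusted p = 0.000183). Csf1r rose by 1.56, Ctss by 1.95 and C1qa by 1.09. In HFD offspring 5 of the 19 rose. The difference between diets in the change with age did not pass for Csf1r or C1qa (limma interaction, adjusted p = 0.209 and 0.282). Of 23 endothelial and mural genes 6 rose and 1 fell (median 0.07), with summed levels of 1654 to 1868 units at P21 and 1211 to 1387 at P0. Slco1a4, a transporter of brain vessels, rose by 3.57, Ly6a by 1.93, Ly6c1 by 1.72 and the glucose transporter Slc2a1 by 0.99, while Cldn5, which seals vessels, fell by 0.83 and Pecam1 at 0.10 did not pass. The call of Cldn5 was lost without P21 replicate 1 (-0.63).

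Of 23 fibroblast and matrix genes 13 fell and 1 rose (median -1.43), while their share of the signal was 0.323% to 0.353% at P21 and 0.0963% to 0.283% at P0. Igfbp2 fell by 2.14, Col4a2 by 2.00 and Col5a1 by 2.10. Of the defining fibroblast markers, Col1a1 was at -1.43 with overlapping ages, and Dcn at 0.10 did not pass. The call of Col1a1 held in 1 of the 8 fits that left out 1 library. Sparc, which astrocytes and vessels also secrete, had 2092, 2309 and 2952 units in the P21 libraries, against 386, 429, 530.1, 254 and 258 units in the P0 libraries and rose by 2.76. Of 16 choroid plexus and ependymal genes 3 rose (18.8%) and 2 fell (12.5%), near the shares of all genes (18.3% and 17.7%). Rarres2 rose by 1.44 and Prlr is also on this list. Ccdc153 was at 1.36, lost without P21 replicate 2 (1.31) or 3 (1.07), and Otx2 at -1.64, lost without P21 replicate 1 (-1.34). Ttr, the leading choroid plexus transcript, had 12.1, 14.8 and 15.5 units in the P21 libraries, against 1126, 104, 8.03, 40.04 and 21.5 units in the P0 libraries. P0 replicate 1 was far above all others, and the difference of -2.06 did not pass. Pituitary cells also make Pomc. Of 13 pituitary markers 4 are in the table and 2 were tested. Cga, the hormone alpha subunit, had 12.1, 8.40 and 24.3 units in the P21 libraries, against 0.09, 0, 2.29, 0.16 and 0.36 units in the P0 libraries, a difference of 3.37 (SE 0.44, adjusted p = 9.56e-05) (32.0% of its exonic bases shared with another gene model). Pitx1, untested for its low level, had 2.54, 0.74 and 9.51 units at P21, against 0, 0, 0.13, 0 and 0.04 units at P0. Both Cga and Pitx1 were highest in P21 replicate 3, the library with the highest Pomc. The share of pituitary RNA in the rise of Pomc was not tested. Of 3 erythroid genes in the table (12 on the list) 2 rose. Alas2 had 22.9, 37.1 and 181 units in the P21 libraries, against 15.5, 14.5, 10.97, 4.90 and 16.7 units in the P0 libraries. P21 replicate 3 stood far above the rest, and the difference of 2.12 was 1.26 without it. Slc4a1 was at 1.72, lost without P0 replicate 2, 3 or 4 (1.52 to 1.60) or P21 replicate 3 (1.19). The part of these other cells in the neuronal results above was not tested.

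Of 18 genes of the matrix around neurons, 5 rose (27.8%) and 5 fell (27.8%), against 18.3% and 17.7% of all genes. Ncan had 60.1, 75.4 and 84.8 units in the P21 libraries, against 337, 383, 313, 299 and 324 units in the P0 libraries and fell by 2.17, and Tnc, tenascin C, fell by 3.28. Hapln4 had 41.7, 59.01 and 109 units in the P21 libraries, against 1.31, 0.56, 7.55, 3.98 and 4.04 units in the P0 libraries, with no overlap and the highest value in P21 replicate 3, and Hapln2, a link protein of nodes of Ranvier, rose by 2.61.

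Of 82 cytosolic ribosomal protein genes, 0 rose and 44 fell (53.7%, median -0.52), by less than most genes named above. Rpl15 had 255, 238 and 221 units in the P21 libraries, against 481, 441, 397, 460.5 and 443 units in the P0 libraries, a difference of -0.90 (SE 0.14, adjusted p = 0.00028). Rpl29 fell by 1.17, Rpl35 by 1.20 and Rpl22, whose protein is the one tagged in RiboTag mice, by 1.13. Rpl35 shares 66.2% of its exonic bases with Wdr38. The number of fallers was 23 without P21 replicate 3 and 46 without P0 replicate 3, and it ran from 18 to 52 over the 8 fits. Of 77 nuclear genes of oxidative phosphorylation 26 rose and 2 fell (median 0.27), 33.8% and 2.6% against 18.3% and 17.7% of all genes. Without P21 replicate 3, 14 were higher. Sdha had 728, 824 and 789.5 units in the P21 libraries, against 182, 189, 335, 321 and 408 units in the P0 libraries and rose by 1.51, Cox6a2 rose by 2.29, Ndufs7 by 0.86 and Ndufb5 by 0.85. Of 27 glycolysis and lactate genes 16 rose and 0 fell (median 0.91). Aldoa had 2319, 2442 and 2565 units in the P21 libraries, against 659.7, 577, 692, 629 and 766 units in the P0 libraries, a difference of 1.88 (SE 0.17, adjusted p = 4.88e-06) without overlap, and Pdk2, which restrains pyruvate oxidation, rose by 1.87.

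Of 22 genes of ketone use and fatty acid oxidation 7 rose (31.8%) and 4 fell (18.2%), against 18.3% and 17.7% of all genes. Hadhb had 153, 152 and 132 units in the P21 libraries, against 41.6, 42.04, 58.2, 46.97 and 51.7 units in the P0 libraries and rose by 1.59, Acadvl by 1.04 and Slc25a14 by 1.11, while the fatty acid carrier Fabp5 fell by 1.41. With P21 replicate 3 left out 4 rose. Of 36 genes of cholesterol and fatty acid synthesis 9 rose and 10 fell (median -0.10), 25.0% and 27.8% against 18.3% and 17.7% of all genes. Without P21 replicate 3, 6 were higher and 11 lower, and without P0 replicate 3, 10 were higher and 6 lower. Cyp46a1, which clears cholesterol from neurons, had 119.7, 131 and 159 units in the P21 libraries, against 37.2, 35.00, 36.6, 40.4 and 41.3 units in the P0 libraries, a difference of 1.81 (SE 0.15, adjusted p = 3.76e-06). Scd1 rose by 2.08, while Fasn fell by 1.12 and Mvk, of the mevalonate pathway, by 1.12.

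Thyroid hormone rises in rodents after birth and drives brain maturation, and 8 of 17 genes of its transport, activation and response rose while 4 fell (median 0.41). Hr, a corepressor that the hormone induces, had 25.9, 31.5 and 27.02 units in the P21 libraries, against 1.33, 3.32, 2.52, 3.31 and 3.16 units in the P0 libraries, a difference of 3.00 (SE 0.29, adjusted p = 8.93e-06). Klf9, another target, had 84.9, 87.8 and 125 units in the P21 libraries, against 14.4, 24.6, 23.97, 13.8 and 13.1 units in the P0 libraries and rose by 2.43, and Thrsp rose by 2.5. Dio3, which destroys the hormone, fell by 2.62. Dio3 was named after its value was seen. All 3 risers, named for their small p, were separated between the ages in every library.

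Of 20 clock genes 11 rose and 2 fell (median 0.82). Dbp, a clock output factor, had 44.1, 45.6 and 43.3 units in the P21 libraries, against 3.28, 4.80, 5.97, 6.85 and 3.60 units in the P0 libraries, and Tef, its relative, had 239, 241 and 235 units in the P21 libraries, against 41.1, 29.99, 50.5, 50.9 and 50.9 units in the P0 libraries. The P21 values of both were tightly grouped, and the differences were 2.98 (SE 0.27, adjusted p = 5.07e-06) for Dbp and 2.42 (SE 0.19, adjusted p = 1.84e-06) for Tef. Bhlhe40 rose by 2.12, and Csnk1e, a kinase of the clock, fell by 1.57. The labels give a cycle of 12 h light and 12 h dark and no hour of collection, so age and time of day cannot be told apart for these genes. Of 15 immediate early genes 5 rose and 1 fell (median 0.25), 33.3% and 6.67% against 18.3% and 17.7% of all genes. Junb rose by 2.47, Egr1 by 2.03, Fos by 1.96 and Arc by 1.83. Fos was at 1.44 without P21 replicate 3, where it stood at 39.0 units against 9.27 and 16.7 in the other P21 libraries.

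Of 24 genes of the unfolded protein response 10 rose and 1 fell (median 0.55), 41.7% and 4.17% against 18.3% and 17.7% of all genes. Dnajb9 had 54.1, 52.8 and 54.3 units in the P21 libraries, against 14.5, 24.7, 19.6, 22.9 and 21.1 units in the P0 libraries, a difference of 1.37 (SE 0.20, adjusted p = 0.000197). Sdf2l1 rose by 1.81, Ddit3 by 1.38 and Dnajc3 by 0.95. Of 31 lysosome and autophagy genes 19 rose and 0 fell (61.3%, median 0.71). Gaa, the lysosomal glucosidase, had 2664, 2742 and 1515 units in the P21 libraries, against 202, 247, 505, 418 and 528 units in the P0 libraries, a difference of 2.65 (SE 0.32, adjusted p = 5.29e-05). Gabarapl1 rose by 1.68, and the cathepsins Ctsf and Ctsb rose by 1.44 and 1.20. Of 27 genes of antigen presentation, interferon response and complement 15 rose and 2 fell (median 0.98). Serpina3n, a protease inhibitor, had 152, 147 and 70.5 units in the P21 libraries, against 4.85, 8.81, 14.8, 5.18 and 4.96 units in the P0 libraries, a difference of 3.87 (SE 0.36, adjusted p = 7.18e-06). Cd74, the invariant chain of class II, rose by 3.16, and the class I loading genes Tapbp and Tap2 rose by 1.22 and 2.30. Serpina3n was lowest, within P21, in replicate 3.

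**Figure D4:**
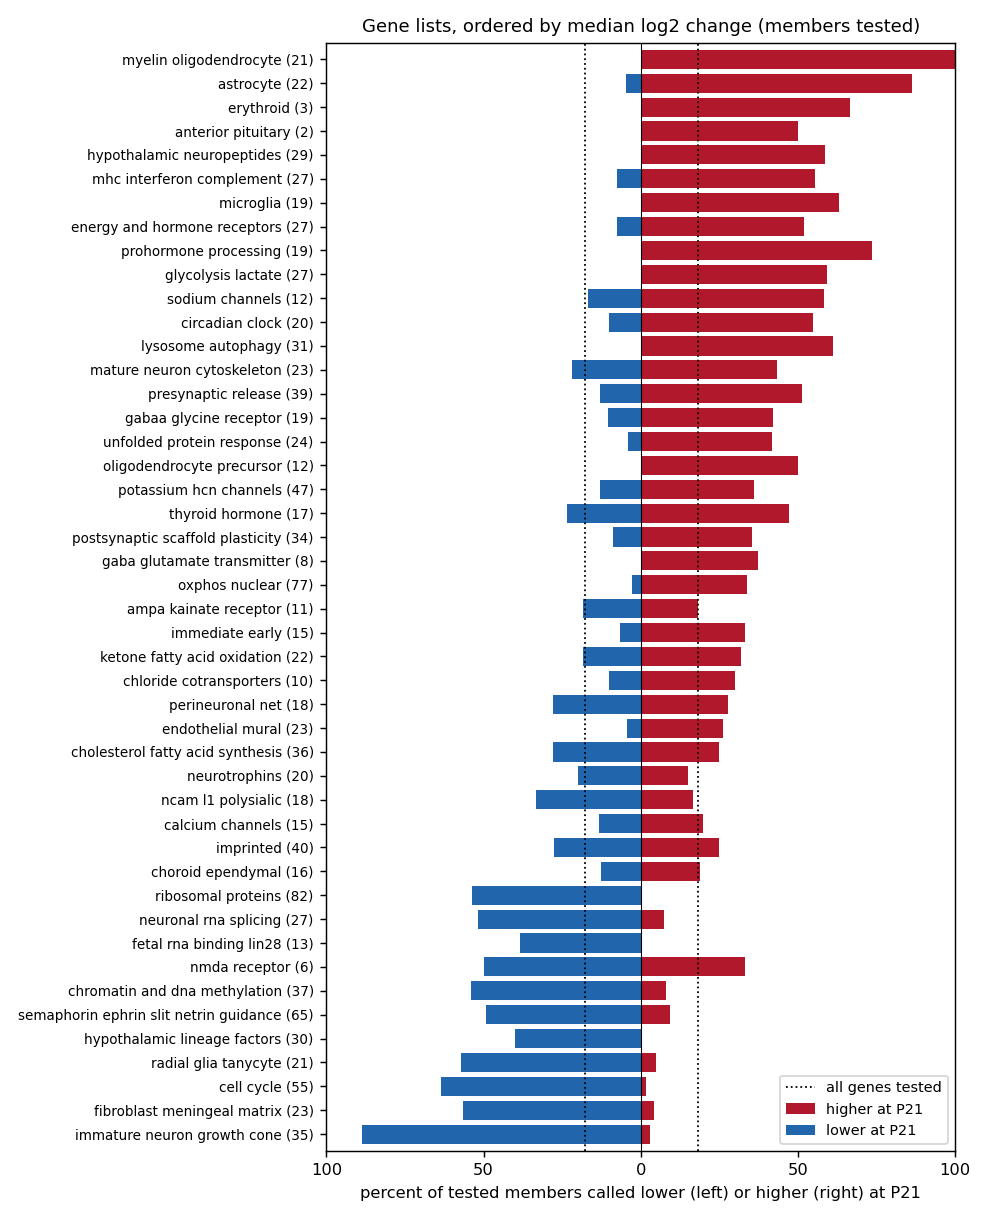
For 46 gene lists with at least 1 tested member, red bars give the percent of tested members higher and blue bars the percent lower at P21, ordered by the median log2 difference, with the number tested in brackets. Dotted lines mark the shares over all genes tested, 18.3% higher and 17.7% lower. Myelin, astrocyte and prohormone processing lists lie far above the line, and growth cone, cell cycle and ribosomal lists far below.

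The HFD libraries shared no sample with the chow libraries and gave the same ages in other offspring. In them 7250 of 14245 genes changed (50.9%), 3521 higher (24.7%) and 3729 lower (26.2%). With each library rescaled to an equal sum the split was 2851 higher and 4583 lower, and the median of all genes moved to -0.21, against -0.05. Of the 5189 chow-changed genes tested there, 4985 (96.1%) had the same sign and 4123 (79.5%) passed, 4108 of these with the same sign and 15 with the opposite sign. Of 8920 genes not past the test in chow, 3079 (34.5%) passed in HFD offspring. Side by side, HFD offspring had a Pomc difference of 5.31 and chow offspring 3.65, while Cartpt had 7.33 in HFD and 4.90 in chow offspring. Npy had 2.70 in HFD offspring, where it passed, and 1.24 in chow offspring, but the direct test of this difference, given below, did not pass. For Dcx the values were -5.88 in HFD and -5.37 in chow offspring, and for Mobp 7.88 in HFD and 7.64 in chow offspring.

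**Figure D5:**
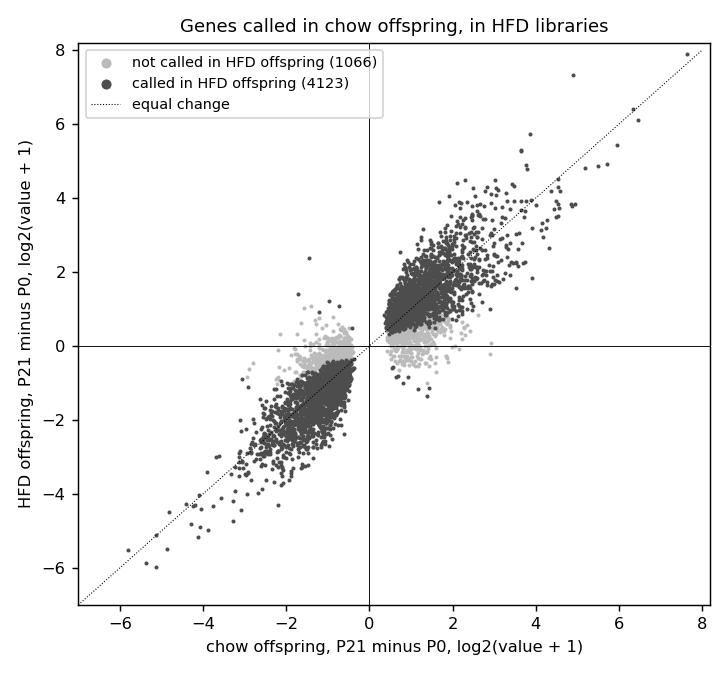
Each point is 1 of 5189 genes that changed with age in chow offspring. The x axis gives its P21 minus P0 difference in chow and the y axis that in HFD offspring, both in log2(value + 1). Dark points (4123) also passed in HFD offspring, and the dotted line marks equal change. Most points lie in the quadrants of equal sign.

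The difference between diets in the change with age was tested directly, as an interaction over all 17 libraries. It passed for 4 of 15037 genes (0.0266%), 2 higher (0.0133%) and 2 lower (0.0133%), with 2290 at an unadjusted p under 0.05. Col11a2, a fibrillar collagen chain, had 3.36 ± 0.505 units at P21 and 3.31 ± 1.52 at P0 in HFD offspring, and 8.41 ± 2.76 at P21 and 0.224 ± 0.206 at P0 in chow offspring, an interaction of -2.84 (adjusted p = 0.00618). Heatr8 had 91.8 ± 6.62 units at P21 and 3.22 ± 1.1 at P0 in HFD offspring, and 40.3 ± 1.46 at P21 and 7.54 ± 1.43 at P0 in chow offspring, an interaction of 2.21 (adjusted p = 0.00618). Hepacam, an adhesion protein of astrocytes, had 39.0 ± 5.95 units at P21 and 78.9 ± 13.6 at P0 in HFD offspring, and 104 ± 29.8 at P21 and 58.3 ± 9.59 at P0 in chow offspring. Its interaction was -1.79 (adjusted p = 0.0106), so it was lower at P21 than at P0 under HFD and higher at P21 under chow. The chow change of Hepacam was lost without P21 replicate 3 (0.59). Tmtc4 had 82.7 ± 14.3 units at P21 and 29.3 ± 12.2 at P0 in HFD offspring, and 26.8 ± 8.21 at P21 and 41.1 ± 10.01 at P0 in chow offspring, an interaction of 2.14 (adjusted p = 0.0314). Tmtc4 shares 19.1% of its exonic bases with another gene. For Pomc, Cartpt and Npy the interactions were 1.66 (adjusted p = 0.403), 2.44 (adjusted p = 0.136) and 1.46 (adjusted p = 0.318). The count of interactions rested on single libraries, since it was 557 without HFD P0 replicate 5, 47 without chow P21 replicate 1, 36 without HFD P21 replicate 1, 14 without HFD P21 replicate 2 and 2 without chow P21 replicate 2.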

How the data were processed

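The deposited table holds normalized signal for 15355 genes: the authors' scaled CPM, which by their values are whole reads per gene divided by an effective library size. Reading steps back gave whole reads for 100% of non-zero values within a tolerance of 0.005 units, which 21.5% to 36.5% of random values would also pass. A stricter check passed in 4 of the 8 chow libraries, so depths are estimates read from these steps. Per the submitters' processing notes, FastQC, TopHat2 2.0.13, Picard 1.80, HTSeq 0.6.1, edgeR and mm10 were used; the sources used here give no settings, strand or gene filter. Overlapping and antisense genes are therefore uncertain. Of 232 genes the naming rule gave, 38 share over 10% of their exonic bases with another gene, and not each is marked above. Per the labels, libraries were Nextera XT, read as 50-base single reads. GENCODE M21 matched 15215 genes (99.1%).

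Genes above 1 unit in at least 3 libraries (4 for HFD) were tested with limma 3.58.1 (R 4.3.3, intensity trend, two-sided) on log2(value + 1), with Benjamini-Hochberg adjustment over all genes tested. The design had foreseen edgeR for counts; edgeR 4.0.16 was run on recovered reads as an alternative. The fit was tested on simulated data. The members and lists were chosen with earlier results of these data known. Named were Pomc, Cartpt, Agrp, Npy, Lepr, the switch pairs, the 15 largest non-overlapping rises and falls, and up to 4 members of smallest p per list. Alternatives covered pseudocount, filter, scaling, prior and each library left out. Some genes the rule names are not reported here.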

Additional observations from a re-analysis of the deposited data

Results flagged for a closer look

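In 24 of 220 named genes 1 P0 library stood far from the other 4 of its age. The gap to the nearest library exceeded 0.71 of the range, in units and not on the log2 scale. About 1 in 20 groups of independent, normally spread values would pass that limit. Several of the genes are of oligodendrocytes and stand out in the same library, P0 replicate 3, so the count was not compared with chance. In P0 replicate 1, Scn3b had 232.18 units, against 320.29 to 339.17 in the others. Trim67 had 138.53 there (163.47 to 165.4 in the others). Csf1r had 13.49 there (20.78 to 22.58 in the others). In P0 replicate 2, Glra1 had 3.68 units, against 0.2 to 1.2 in the others. Dcx had 517.17 there (379.76 to 412.91 in the others). Fat4 had 953.45 there (304.38 to 412.24 in the others). Nova1 had 216.5 there (146.95 to 166.1 in the others). In P0 replicate 3, Cartpt had 105.57 units, against 7.21 to 22.05 in the others. Vamp1 had 44.83 there (19.92 to 25.59 in the others). Mobp had 35.16 there (0.2 to 3.11 in the others). Mog had 14.42 there (0.7 to 2.11 in the others). Mal had 27.19 there (1.68 to 6.29 in the others). Mbp had 291.9 there (42.2 to 104.94 in the others). Opalin had 3.52 there (0.03 to 0.8 in the others). Mag had 28.64 there (9.61 to 12.43 in the others). Ermn had 5.84 there (0.44 to 1.67 in the others). Enpp6 had 5.74 there (0 to 0.76 in the others). Impact had 137.95 there (88.85 to 93.97 in the others). Cga had 2.29 there (0 to 0.36 in the others). In P0 replicate 4, Dlx2 had 47.77 units, against 22.3 to 28.51 in the others. In P0 replicate 5, Gad2 had 56.17 units, against 87.75 to 97.02 in the others. Gabrd had 1.28 there (0 to 0.19 in the others). Cdkn1c had 116.11 there (79.12 to 89.05 in the others). Mvk had 91.69 there (74.83 to 79.48 in the others). 

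The change with age differed between diets, by the interaction test, in 4 genes. The interactions, HFD minus chow, were -2.84 for Col11a2, 2.21 for Heatr8, -1.79 for Hepacam and 2.14 for Tmtc4 (limma, adjusted p = 0.00618, 0.00618, 0.0106 and 0.0314).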

How the results depend on the processing

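The change with age in chow offspring counted 3912 genes (without P21 replicate 2) to 5161 (without P0 replicate 5) when 1 library was left out, 1978 to 2688 higher and 1934 to 2521 lower. On the 4 chow libraries whose read steps were sharpest (P21 replicate 3 alone at P21, assumed to vary like the others), edgeR called 1056 genes (603 higher, 453 lower) and limma 1070 (568 higher, 502 lower), fewer samples by construction. On reads recovered from all 8 libraries edgeR called 4949 genes, 4864 of them shared with limma. These fits on recovered reads were chosen after seeing the data. With 1 library left out the HFD counts ran from 6417 to 8119, with 3117 to 3998 higher and 3248 to 4121 lower. With libraries rescaled the HFD count was 7434 (2851 higher, 4583 lower). With 1 library left out the interaction ran from 2 to 557 genes (557 without HFD P0 replicate 5), 1 to 301 higher and 1 to 256 lower, and was 9 with libraries rescaled (7 lower) and 2 without the intensity trend (1 higher, 1 lower). Same-numbered libraries showed little shared deviation (correlations -0.019, -0.099 and 0.095 in chow, and -0.046, 0.125, 0.07 and 0.006 in HFD). Whether the numbers pair samples is not in the labels. These correlations cannot decide it, since libraries that share a litter or batch need not deviate in the same genes at both ages. With a replicate block 4898 genes changed in chow (2548 higher, 2350 lower), 8148 in HFD (3991 higher, 4157 lower) and 42 in the interaction (24 higher, 18 lower). Agrp reversed to -0.06 (adjusted p = 0.972) in edgeR on the 4 libraries, where limma gave 0.11 (adjusted p = 0.951). Their only P21 library had 13.97 units of Agrp, against 5.25 to 21.94 in P0 libraries, so these fits hold no P21 library of high Agrp by construction. With a robust prior Agrp missed the threshold (adjusted p = 0.0637). Depth limits genes near 0.083 to 0.138 units.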

Other observations

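The Y-linked gene Ddx3y had 97.15 to 117.62 units in the P21 libraries and 45.37 to 70.31 in the P0 libraries, and Eif2s3y, Uty and Kdm5d were above 0 in every chow library. The labels give no sex, and the share of males in each library was not analysed here.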
